A study of Mus musculus with 43 samples.

Results

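The miR-10, miR-99/100 and miR-125 microRNAs were described across the epididymis, its luminal fluid and cauda sperm of WT and Rnase9-12 KO mice. The 8 mouse genes were taken by name, and the rule used no measured value: Mir10a and Mir10b, Mir99a, Mir99b and Mir100, and Mir125a, Mir125b-1 and Mir125b-2. In the tables each is 1 hairpin feature named by symbol and transcript, such as Mir10a-201, Mir10b-201, Mir99a-201 and Mir125a-201. All 8 were listed in each count table, that is 8 of 4890 RNAs in tissue (312 of them microRNA genes), 8 of 3178 in fluid (331 microRNA genes) and 8 of 4323 in sperm (394 microRNA genes). All 8 passed the filter on low counts in tissue and in fluid, and 7 passed it in sperm, where Mir100 did not.

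MicroRNAs are short RNAs cut from a hairpin precursor, and they guide Argonaute proteins to messenger RNAs that pair with the seed at the 5′ end of the mature strand. The miR-10 genes lie in Hox clusters and take part in anterior-posterior patterning. The miR-99/100 and miR-125 genes lie together with let-7 genes in conserved clusters. miR-99/100 microRNAs are known to target mTOR signalling, and the miR-125 microRNAs are the vertebrate relatives of lin-4, the founding microRNA.

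The mature 5′ strands are shown because the seeds define the 3 groups and because near-identity between members limits which gene a read can be assigned to. Sequences are from RefSeq (GRCm38.p6), written 5′ to 3′, with the seed (bases 2 to 8) in capitals.
miR-10a-5p: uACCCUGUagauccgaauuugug
miR-10b-5p: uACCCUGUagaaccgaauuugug
miR-99a-5p: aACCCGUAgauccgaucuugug
miR-99b-5p: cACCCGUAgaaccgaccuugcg
miR-100-5p: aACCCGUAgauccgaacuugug
miR-125a-5p: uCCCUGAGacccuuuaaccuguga
miR-125b-5p: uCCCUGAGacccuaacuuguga
The 8 genes gave 7 mature sequences, since Mir125b-1 and Mir125b-2 encode the same one, and these carried 3 seeds. miR-10a-5p and miR-10b-5p differed by U12A, counted from 1 at the 5′ end with the miR-10a base first. miR-99a-5p and miR-100-5p differed by U16A, with the miR-99a base first. The miR-10 and miR-99/100 seeds are alike but shifted, and miR-10a-5p shared an unbroken run of 10 bases with miR-99a-5p. Among 1679 mature mouse sequences in the table, the miR-10 seed occurred in 2 and the miR-99/100 seed in 3. The miR-125 seed occurred in 5, which also include miR-351-5p, miR-6367 and miR-6394.

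All 8 hairpins lie on the + strand of GRCm38 (mm10). Mir10b (chr2:74726070-74726137) lies in introns of Hoxd3 and Hoxd4, and Mir10a (chr11:96317165-96317274) overlapped no other annotated gene. Mir99a (chr16:77598936-77599000) and Mir125b-2 (chr16:77646273-77646343) lie in introns of Mir99ahg, the host gene of this cluster, with let-7c-1 656 bp after Mir99a. Mir100 (chr9:41531425-41531504) and Mir125b-1 (chr9:41581926-41582002) lie in introns of 3110039I08Rik, with let-7a-2 5211 bp after Mir100. Mir99b (chr17:17830188-17830257) and Mir125a (chr17:17830812-17830879) lie within Spaca6, with let-7e only 94 bp after Mir99b and 367 bp before Mir125a. Mir99b is intronic, whereas Mir125a falls in an exon of 1 of 3 Spaca6 transcripts.

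The mice were of the FVB strain and 8 to 12 weeks old. KO mice carried a CRISPR/Cas9 deletion of the chromosome 14 locus with Rnase9, Rnase10, Rnase11 and Rnase12, and WT mice did not. Tissue of the caput, corpus and cauda epididymis was sequenced by ARM-seq in 3 libraries per segment and genotype, except 2 for KO corpus. Fluid freed of sperm, extracellular vesicles and debris was sequenced by OTTR-seq in 3 libraries per segment and genotype, and cauda sperm in 4 libraries per genotype. RNA was treated with PNK, each fluid or sperm library pooled 3 mice, and pooling of tissue was not stated, so p-values for tissue measure the spread between libraries that may share animals. The deleted genes were not among the small RNA features, so the KO labels could not be checked here. The section label disagreed with the title in 1 tissue library (WT caput replicate 3) and in all 6 caput fluid libraries, which read Cauda, and titles were followed. Mir196b, a Hox-cluster microRNA with 0 to 6 counts in caput and 9 to 281 in cauda tissue, had 0 to 5 counts in the libraries titled caput fluid and 10 to 57 in cauda fluid.

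Total counts ranged from 30142156 to 249732714 in tissue, 1948718 to 12320922 in fluid and 1134840 to 62128314 in sperm. MicroRNA genes held 0.0219 to 0.0618% of the counts in tissue, 0.130 to 0.812% in fluid and 0.0386 to 0.168% in sperm. Sperm replicates 2 and 3 of the WT had 1119 and 1181 microRNA counts, against 78957 in the deepest sperm library, so the values of those libraries rest on few reads. The 5 epithelial microRNAs of the miR-200 family were listed everywhere. The germ and ciliated cell microRNAs (miR-34b/c and miR-449) had a summed level of 17.9 to 47.2 CPM in sperm (4 of 5 listed). In tissue (2 of 5 listed) it was 0.038 to 0.462 CPM. In WT fluid (3 of 5 listed) it was 1.996 to 3.499 CPM in caput and 15.1 to 31.6 in cauda. In KO fluid it was 3.202 to 4.33 CPM in caput and 12.5 to 23.04 in cauda. Cauda fluid thus overlapped sperm for these markers in both genotypes. Their part in the differences between fluid segments was not tested. Levels are given as CPM, counts divided by the library size in units of 1000000 counts and scaled by the TMM factors of edgeR. They are levels in bulk RNA, where fewer cells of a type and less RNA per cell cannot be told apart.

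The 8 genes together took a large share of the microRNA reads in each material. With miR-125b counted only 1 time, they held 12.4 to 27.2% of microRNA counts in tissue, 6.01 to 10.96% in fluid and 3.61 to 5.88% in sperm. Reads of miR-125b were counted on both of its genes, and the counts of Mir125b-1 and Mir125b-2 differed by a median of 2.40% in tissue, 0.134% in fluid and 0.628% in sperm. Output of Mir125b-1 and Mir125b-2 therefore cannot be told apart. Below, "miR-125b" means Mir125b-1 for levels and tests, and the mean of both genes for shares of the family's counts. Counts of members and medians over the members include both genes, so miR-125b enters them through each. Mir10a and Mir10b differ by 1 base, and their count ratio had a median of 1.27 in tissue, 1.03 in fluid and 1.14 in sperm. At the minimum read length that the paper set, a read within the mature strand covers that base. How far reads of these genes are mixed was not tested.

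The make-up of the family differed between materials. With miR-125b counted only 1 time, the miR-10 seed held 79.1 to 93.2% of the family's counts in tissue (median 88.3%), 11.2 to 30.1% in fluid (median 19.0%) and 47.0 to 59.2% in sperm (median 50.2%). The miR-125 seed held 2.06 to 7.82% in tissue, 59.9 to 80.05% in fluid and 32.7 to 44.4% in sperm. The miR-99/100 seed held 4.12 to 16.2% in tissue, 6.69 to 24.2% in fluid and 5.80 to 15.0% in sperm. The ranges of the miR-10 seed did not overlap between any pair of the 3 materials, and neither did those of the miR-125 seed. miR-125b held 50.5 to 73.9% of family counts in fluid, where it made up most of the miR-125 seed in every library, and 1.03 to 5.42% in tissue, where Mir125a reached about the same share in some libraries. These shares do not depend on scaling between libraries, but tissue was prepared by ARM-seq and the other materials by OTTR-seq, so material and library protocol cannot be told apart between tissue and the rest, and no test was made across tables.

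**Figure D1:**
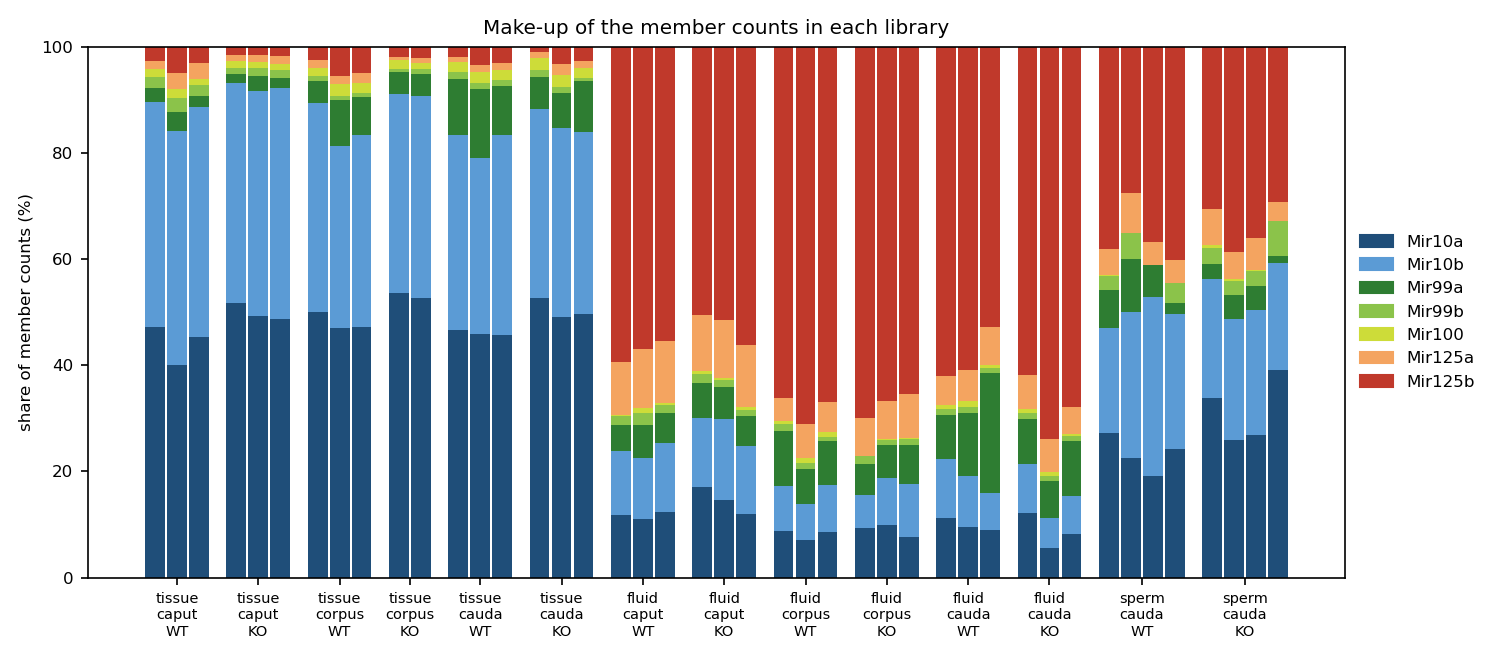
Share of the family's counts (percent, y axis) held by each mature sequence in each of the 43 libraries (x axis), with miR-125b counted once; each stacked bar is 1 library and sums to 100. The miR-10 seed fills 79.1 to 93.2% of every tissue bar and at most 30.1% of any fluid bar, with sperm at 47.0 to 59.2%.

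In tissue, Mir10a and Mir10b were the most abundant members, and neither was called between segments. Mir10a had 46.7, 15.1 and 35.6 CPM in WT caput, 35.1, 42.0 and 30.7 in WT corpus and 39.2, 24.3 and 29.3 in WT cauda. Mir10b had 41.7, 16.6 and 34.1 CPM in WT caput, 27.7, 30.6 and 23.5 in WT corpus and 30.8, 17.6 and 24.2 in WT cauda. The 3 segments overlapped for both genes, and WT caput replicate 2 was the lowest WT library for each. In cauda against caput of the WT, Mir10a differed by a log2 fold change of -0.07 and Mir10b by -0.35, neither of which passed the test. In KO tissue both genes lay below caput without overlap in corpus and in cauda, as 17.7% and 19.6% of all RNAs did. Mir10b differed by -1.11 ± 0.39 and -0.73 ± 0.34 (edgeR adjusted p = 0.253 and 0.118) and Mir10a by -0.84 ± 0.40 and -0.44 ± 0.35 (adjusted p = 0.428 and 0.374).

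Mir99a was the member whose level changed most clearly along the duct. Its tissue levels were 2.74, 1.39 and 1.59 CPM in WT caput, 2.80, 7.80 and 4.67 in WT corpus and 8.86, 6.87 and 5.87 in WT cauda. In KO tissue they were 1.31, 2.01 and 1.79 CPM in caput, 1.95 and 1.62 in corpus and 3.89, 4.47 and 4.38 in cauda. In both genotypes every cauda library lay above every caput library, while KO corpus overlapped KO caput. Mir99a was significantly higher in cauda than in caput tissue, by a log2 fold change of 1.91 ± 0.39 (SE) in the WT (edgeR adjusted p = 0.00136) and 1.32 ± 0.38 in the KO (edgeR adjusted p = 0.0167). In these comparisons 15.7% of all RNAs tested were called higher and 7.28% lower in the WT, and 17.1% higher and 8.6% lower in the KO, where called means an adjusted p under 0.05 and a log2 fold change beyond 1 in either direction. Non-overlapping higher levels were seen for 19.3% of RNAs in the WT and 19.2% in the KO. The WT call was kept without any single library, with adjusted p from 0.00104 to 0.0104, whereas the KO call was lost without KO caput replicate 1 (1.17, edgeR adjusted p = 0.0674) or replicate 3 (1.35, edgeR adjusted p = 0.0505). With scaling by library size alone both calls were lost (1.44, edgeR adjusted p = 0.0535 in the WT and 0.52, adjusted p = 0.449 in the KO).

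**Figure D2:**
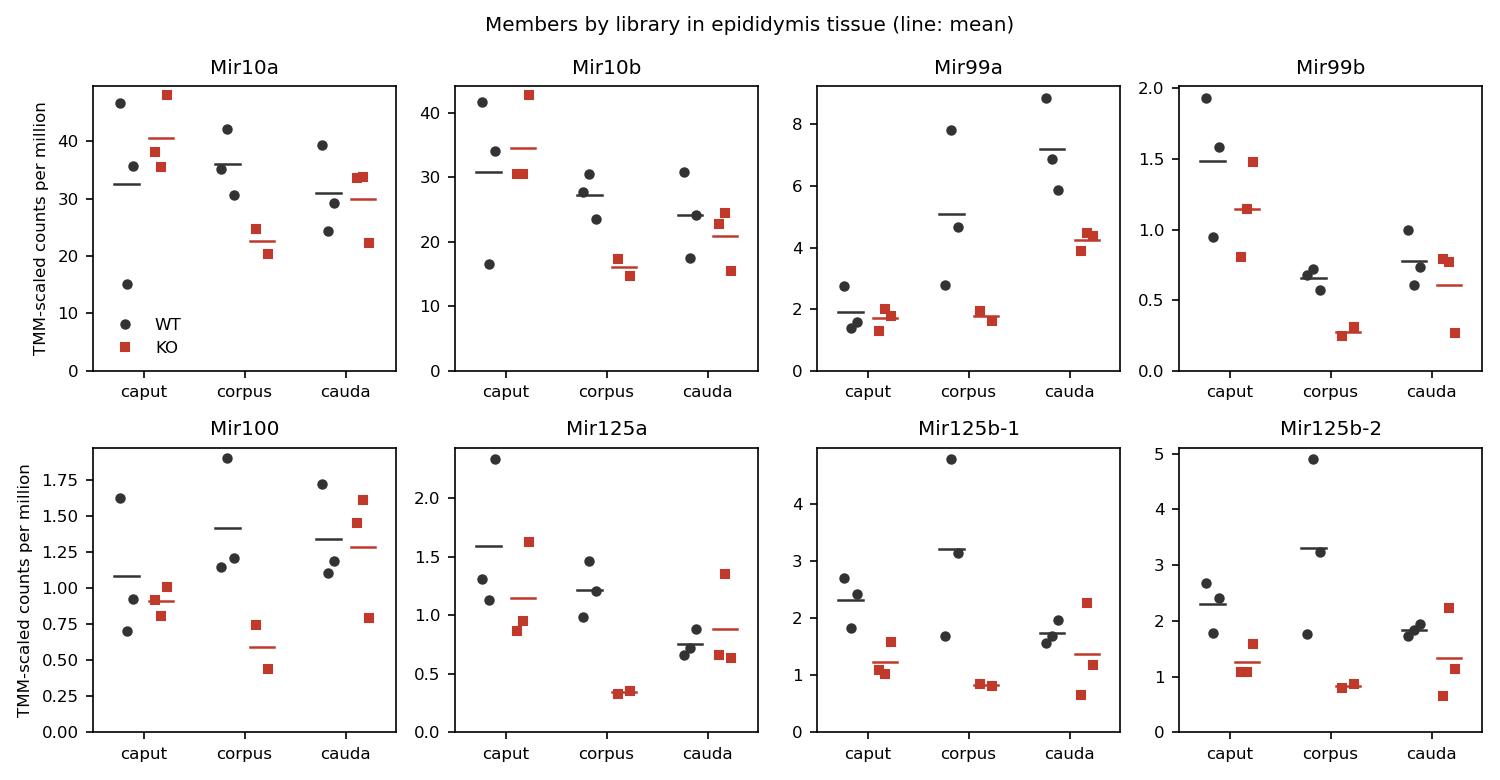
Level of each member in epididymis tissue (y axis, CPM on a linear scale from 0) by segment (x axis), with 1 point per library, WT as circles and KO as squares, and lines at group means. Mir99a lies between 1.31 and 2.74 CPM in all 6 caput libraries and between 3.89 and 8.86 in all 6 cauda libraries, while Mir10a and Mir10b overlap between segments in the WT.

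The same direction was seen in WT fluid. Mir99a had 14.6, 13.8 and 15.6 CPM in caput fluid, 18.2, 14.6 and 20.3 in corpus fluid and 34.3, 27.7 and 35.4 in cauda fluid of the WT. All 3 cauda values lay above the caput and corpus values, and cauda exceeded caput by a log2 fold change of 1.14 ± 0.36 (edgeR adjusted p = 0.0238). Of all RNAs, 9.69% were called higher and 15.4% lower there, and 16.5% had non-overlapping higher levels. The call was lost without any single one of 5 of the 6 libraries (adjusted p up to 0.0797) and was kept only without WT cauda replicate 2. Across the alternatives that leave out no library, the value ranged from 0.88 to 1.33, with edgeR or DESeq2 adjusted p up to 0.110. The median log2 difference was 0.55 over the 232 microRNAs tested and -0.17 over all RNAs. The part of the microRNAs as a whole in the Mir99a value was not tested. In KO fluid, Mir99a had 18.2, 22.6 and 22.9 CPM in caput and 24.03, 29.3 and 35.9 in cauda, again without overlap, and the fold change of 0.49 ± 0.35 did not pass (edgeR adjusted p = 0.311). Non-overlapping higher levels were seen for 18% of RNAs in that comparison.

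The share of Mir99a within the family was also larger toward the cauda. It held 2.83 ± 0.838% (SD, n = 3) of family counts in WT caput tissue, 6.63 ± 2.42% in corpus and 10.9 ± 1.94% in cauda. The KO shares were 2.13 ± 0.573% in caput (n = 3), 4.21 ± 0.0437% in corpus (n = 2) and 7.45 ± 1.995% in cauda (n = 3). In fluid the WT shares were 5.51 ± 0.751%, 8.49 ± 1.83% and 14.3 ± 7.37%, with WT cauda replicate 3 at 22.5%, and the KO shares were 6.10 ± 0.534%, 6.48 ± 0.826% and 8.58 ± 1.63% (n = 3 each). In all 4 series of segments, the mean share was lowest in caput and highest in cauda. These are descriptions with no test, and the corpus and cauda are set against the same caput libraries.

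Corpus and caput differed for Mir99a only in WT tissue among the calls made. There it was higher in corpus by 1.41 ± 0.38 (edgeR adjusted p = 0.0209), where 9% of RNAs were called higher and 2.81% lower and 14.1% had non-overlapping higher levels. This call was lost without WT caput replicate 2 (1.23, edgeR adjusted p = 0.104), without WT caput replicate 3 (1.22, adjusted p = 0.0927) or without WT corpus replicate 2 (0.98, adjusted p = 0.120). Across the alternatives that leave out no library, the value ranged from 0.63 to 1.42, with edgeR or DESeq2 adjusted p up to 0.293. The median log2 difference was 0.87 over the 172 microRNAs tested and 0.08 over all RNAs. The part of the microRNAs as a whole in the Mir99a value was not tested. In KO tissue the same contrast was 0.07 ± 0.42 (edgeR adjusted p = 0.954), and whether it differed from the WT was not tested.

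Muscle markers moved with Mir99a in tissue. Of the 3 fixed markers 2 were listed in tissue, and their summed level ran from 20.6 to 40.3 CPM in WT caput, 44.2 to 87.5 in WT corpus and 108 to 215 in WT cauda, and from 23.5 to 39.8, 24.3 to 29.5 and 107 to 140 CPM in the KO segments. Mir143, a smooth muscle microRNA, was higher in cauda than caput tissue by 2.53 in the WT (edgeR adjusted p = 7.14e-05) and 1.99 in the KO (adjusted p = 0.000496), and Mir145a by 1.47 (adjusted p = 0.0423) and 1.54 (adjusted p = 0.0319). Of the 5 striated muscle markers 4 were listed, and their summed level ran from 0.731 to 1.90 CPM in WT caput and 4.199 to 6.97 in WT cauda, and from 1.11 to 1.46 and 3.05 to 4.09 CPM in the KO. In fluid, the summed smooth muscle level ran from 76.8 to 139 CPM in WT caput and 147 to 321 in WT cauda, and neither marker was called there. Their part in the Mir99a result was not tested.

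The neighbours of Mir99a were not called higher with it. In cauda against caput WT tissue, let-7c-1 differed by -0.24 ± 0.39 (edgeR adjusted p = 0.730), and Mir125b-2, which shares its reads with Mir125b-1, by -0.32. Mir100, the near-identical gene on chromosome 9, differed by 0.30, with levels of 1.62, 0.707 and 0.927 CPM in WT caput and 1.73, 1.11 and 1.19 in WT cauda tissue that overlapped.

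The chromosome 17 genes Mir99b and Mir125a had their highest WT means in caput. Mir99b had 1.93, 0.951 and 1.58 CPM in WT caput tissue, 0.681, 0.720 and 0.576 in corpus and 0.996, 0.611 and 0.734 in cauda. Mir125a had 1.31, 1.13 and 2.33 CPM in WT caput tissue, 0.986, 1.46 and 1.204 in corpus and 0.664, 0.725 and 0.886 in cauda. For Mir99b every corpus library lay below every caput library, and for Mir125a every cauda library did so, but none of these differences was called: Mir99b was -1.19 ± 0.39 in corpus against caput (edgeR adjusted p = 0.0597) and Mir125a was -1.06 ± 0.38 in cauda against caput (edgeR adjusted p = 0.0521). Non-overlapping lower levels were seen for 9.12% and 18.6% of RNAs in these comparisons. With the replicate number as a block both passed, Mir99b at -1.19 (edgeR adjusted p = 0.0228) and Mir125a at -1.06 (adjusted p = 0.0186), and in KO tissue Mir99b then passed in cauda against caput at -1.08 (adjusted p = 0.0362) against -0.999 ± 0.42 (adjusted p = 0.0832) without the block. The block called 3.93%, 9.95% and 12.4% of all RNAs lower and 15.2%, 19.7% and 22.1% higher in these comparisons.

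In WT fluid both genes were significantly lower in corpus than in caput. Mir99b had 5.19, 5.25 and 4.64 CPM in caput fluid, 2.24, 2.26 and 1.81 in corpus and 4.41, 2.91 and 1.53 in cauda. Mir125a had 31.0, 24.5 and 32.5 CPM in caput fluid, 7.61, 14.0 and 13.7 in corpus and 21.7, 13.6 and 11.2 in cauda. Corpus lay below caput without overlap for both, by -1.24 ± 0.42 for Mir99b (edgeR adjusted p = 0.0437) and -1.31 ± 0.40 for Mir125a (edgeR adjusted p = 0.0269), and cauda also lay below caput without overlap, as 26.6% of RNAs did. In corpus against caput of WT fluid, 8.21% of RNAs were called higher and 9.54% lower, and 21.5% had non-overlapping lower levels. Both calls were lost without any single one of the 6 libraries, with adjusted p from 0.0925 to 0.193 for Mir99b and from 0.0636 to 0.150 for Mir125a. The 5 epithelial markers also lay lower without overlap, at 27.1 to 62.6 CPM in WT corpus fluid against 103 to 182 CPM in WT caput fluid, and their part in these values was not tested. let-7e, which lies between Mir99b and Mir125a, was also called lower in corpus than caput WT fluid at -1.85 ± 0.56 (edgeR adjusted p = 0.0260), in cauda than caput WT fluid at -2.12 ± 0.56 (adjusted p = 0.00848) and in cauda than caput KO fluid at -1.66 ± 0.54 (adjusted p = 0.0279). Of the 3 let-7 genes of these clusters, let-7a-2 and let-7c-1 were called in no segment comparison.

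**Figure D3:**
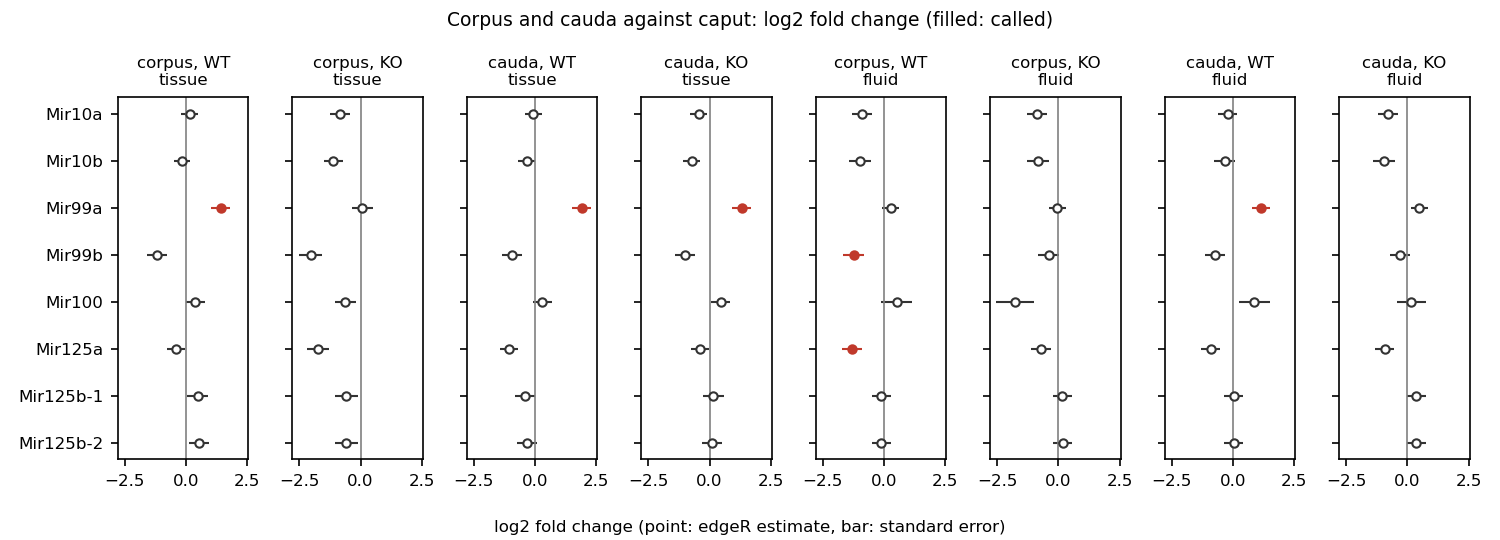
Log2 fold change between segments (x axis, edgeR estimate with SE bars) of each member (y axis) in tissue and fluid of WT and KO mice; filled red points passed the test. Mir99a lies to the right of 0 in cauda against caput of both materials and genotypes. In corpus against caput of WT fluid, Mir99b and Mir125a are the members furthest left, at -1.24 and -1.31. They lie further left in corpus against caput of KO tissue, at -2.04 (edgeR adjusted p = 0.0670) and -1.75 (adjusted p = 0.107), where neither passed.

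Across the 12 segment comparisons, 6 of 96 member tests were called, 4 of them higher levels of Mir99a and 2 the lower levels in WT corpus fluid. The comparisons with no member called by edgeR were cauda against caput in KO fluid, corpus against caput in KO tissue and KO fluid, and the 4 comparisons of cauda against corpus. In these, 2, 3 and 2 members, and then 0, 4, 1 and 1 in WT tissue, KO tissue, WT fluid and KO fluid, had an unadjusted p under 0.05. In the same order, edgeR gave such p-values for 833 of 2023, 407 of 3488 and 634 of 2023 RNAs. For the 4 comparisons of cauda against corpus these were 599 and 832 of 3488, and 572 and 435 of 2023. DESeq2 called 2 members in corpus against caput of KO tissue (Mir99b and Mir125a), 2 in cauda against corpus of KO tissue (Mir99a and Mir125a) and 0 in the other 5. DESeq2 called 0.549% of all RNAs higher and 0.275% lower in the first of these and 8.19% and 2.13% in the second. The share of all RNAs called higher by edgeR was 11.5% in cauda against caput of KO fluid, 0.487% and 11.5% in corpus against caput of KO tissue and KO fluid, and 3.24%, 10.3%, 0.198% and 0.395% in cauda against corpus of WT tissue, KO tissue, WT fluid and KO fluid. The shares called lower were 14.5%, 0.143%, 7.86%, 0.172%, 2.06%, 1.98% and 2.57% in the same order.

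Levels without overlap were commoner than calls in these comparisons, for members and for all RNAs. In KO tissue, Mir10a, Mir10b and Mir99b lay lower in cauda than in caput (19.6% of RNAs did), and 7 of 8 members, all but Mir99a, lay lower in corpus than in caput, where 17.7% of RNAs lay lower and 26.1% higher. Mir99a, Mir100 and Mir125a lay higher in cauda than in corpus KO tissue, where 20.4% of RNAs lay higher and 18.7% lower. In WT tissue, Mir125a alone was without overlap between these segments, lower in cauda, where 9.49% of RNAs lay lower and 8.97% higher. In KO fluid, Mir10a, Mir10b and Mir125a lay lower in cauda than caput (25.4% of RNAs), Mir10a, Mir99b and Mir100 lay lower in corpus than caput (19.3% lower and 20.2% higher), and Mir100 lay higher in cauda than corpus (6.77% higher and 13.7% lower). In WT fluid, Mir99a lay higher in cauda than in corpus, where 10.8% of RNAs lay higher and 13.8% lower.

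In fluid, miR-125b was the leading member in every library. It had 183, 126 and 156 CPM in WT caput, 116, 154 and 163 in WT corpus and 254, 142 and 82.6 in WT cauda. KO fluid held 138, 192 and 229 CPM in caput, 176, 203 and 247 in corpus and 175, 309 and 238 in cauda. The WT segments overlapped, and the widest spread was within WT cauda. Mir10a had 36.6, 24.3 and 35.0 CPM in WT caput fluid, 15.4, 15.4 and 20.9 in corpus and 46.0, 22.5 and 14.1 in cauda. Mir10b followed it, with 37.3, 25.4 and 36.5 CPM in caput, 14.9, 14.5 and 21.3 in corpus and 45.1, 22.1 and 10.9 in cauda. Both genes were lower in all 3 corpus than in all 3 caput libraries of the WT, as 21.5% of all RNAs were. The differences of -0.89 and -0.97 did not pass (edgeR adjusted p = 0.132 and 0.146). WT cauda replicate 1 was the highest and replicate 3 the lowest WT cauda library for every member but Mir99a. MicroRNA genes held 0.130% of the counts in WT cauda replicate 3, against 0.384% and 0.381% in replicates 1 and 2.

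**Figure D4:**
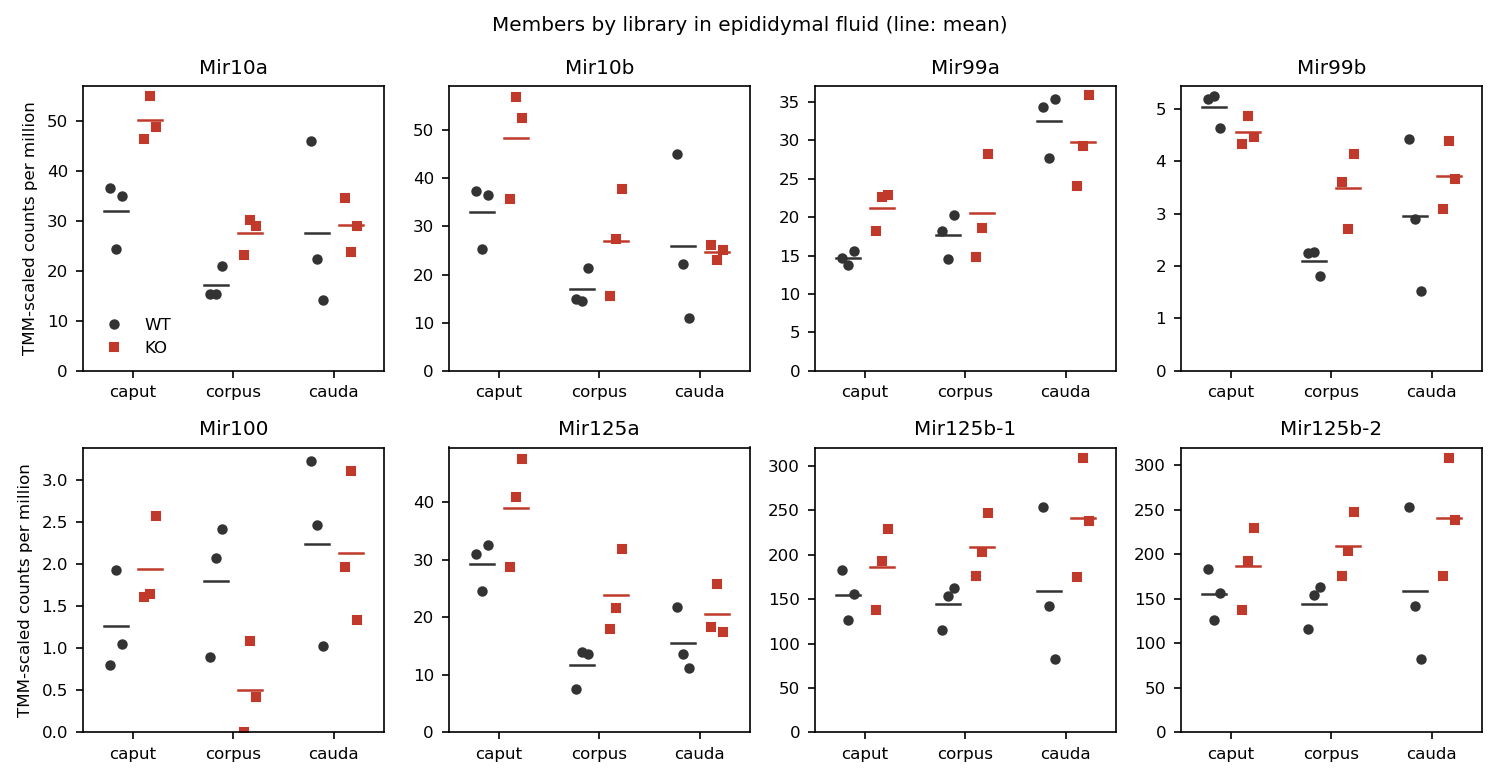
Level of each member in epididymal fluid (y axis, CPM on a linear scale from 0) by segment (x axis), with 1 point per library, WT as circles and KO as squares, and lines at group means. Mir125b-1 ranges from 82.6 to 309 CPM, and in corpus the 3 KO libraries lie above the 3 WT libraries for Mir10a, Mir99b, Mir125a and both Mir125b genes.

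Deletion of Rnase9-12 changed no member past the test in any of the 7 comparisons of KO with WT. By edgeR 0 of 55 member tests were called, 24 in tissue, 24 in fluid and 7 in sperm, with the smallest adjusted p at 0.0812. An unadjusted p under 0.05 was seen in 10 tests, 6 in corpus tissue, 2 in caput tissue and 2 in corpus fluid. The 2 in caput tissue were Mir125b-1 and Mir125b-2, which share their reads, and the 6 in corpus tissue include both. Over all RNAs, edgeR gave such p-values for 279 of 3488 in corpus tissue, 34 of 3488 in caput tissue and 684 of 2023 in corpus fluid. DESeq2 called 4 members in corpus tissue, all lower, and 0 in the other comparisons. Of all RNAs, DESeq2 called 0% higher and 0.507% lower in corpus tissue, 0% in caput tissue, 1.46% higher and 2.24% lower in cauda tissue, 0.2% and 0.0666% in caput fluid, 10% and 5.42% in corpus fluid, 0.998% and 0.333% in cauda fluid and 0.124% and 3.33% in sperm. Of all RNAs, edgeR called 0% in caput and corpus tissue, caput and cauda fluid and sperm. In cauda tissue it called 0.0287% higher and 0.831% lower (5.79% and 3.56% with the replicate block, and again no member), and in corpus fluid 13.5% higher and 6.23% lower. The difference in KO effect between cauda and caput was called for 0 of 16 member tests by edgeR and by DESeq2. By edgeR it ranged from -0.72 to 0.67 on the log2 scale for the members, with 0% of all RNAs called in either direction. An unadjusted edgeR p under 0.05 was seen for 0 member tests, against 211 of 3488 RNAs in tissue and 221 of 2023 in fluid. Of all RNAs, DESeq2 called 0 higher and 16 lower of 4735 in tissue, and 29 higher and 12 lower of 3005 in fluid. The tissue and fluid comparisons of KO with WT use the same libraries as the comparisons of segments.

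Corpus tissue gave the lowest values in the KO. All 8 members lay lower in both KO libraries than in all 3 WT libraries, where 15.2% of all RNAs lay lower without overlap and 11.8% higher. Mir125a had 0.330 and 0.354 CPM in KO corpus against 0.986, 1.46 and 1.204 in WT, a difference of -1.82 ± 0.45 (edgeR adjusted p = 0.381). miR-125b had 0.847 and 0.808 CPM against 1.68, 4.78 and 3.14, a difference of -1.95 ± 0.50 (edgeR adjusted p = 0.381). Mir99a differed by -1.51 ± 0.44 (adjusted p = 0.418), Mir99b by -1.23 ± 0.47 and Mir100 by -1.25 ± 0.44, while Mir10a had 24.7 and 20.4 CPM in KO and differed by -0.67 ± 0.40 and Mir10b by -0.77 ± 0.38. The 4 members DESeq2 called were Mir125a (-1.83, adjusted p = 0.0144), Mir125b-1 (-1.95, adjusted p = 0.0118), Mir125b-2 (-1.98, adjusted p = 0.00851) and Mir99a (-1.51, adjusted p = 0.0484).

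MicroRNAs as a class moved with these values in corpus tissue. The median log2 difference was -1.38 over the 8 members, -1.02 over the 172 microRNAs tested and -0.04 over all RNAs, and microRNA genes held 0.0235 to 0.0274% of counts in the KO against 0.0340 to 0.0515% in the WT. The 5 epithelial microRNAs fixed as markers had a median of -0.95, with edgeR adjusted p of 0.559 or more, and a summed level of 10.5 to 10.7 CPM in KO against 16.3 to 25.9 CPM in WT corpus. The smooth muscle markers summed to 24.3 to 29.5 against 44.2 to 87.5 CPM, the endothelial marker (1 of 2 listed) had 0.689 to 0.753 against 1.16 to 2.28 CPM and the blood markers (4 of 6 listed) summed to 0.0775 to 0.0862 against 0.163 to 0.179 CPM. Scaled on microRNA genes alone, Mir10a and Mir10b turned to 0.17 and 0.07, and the other 6 members stayed negative and uncalled, with Mir125a at -0.96, Mir125b-1 at -1.01, Mir125b-2 at -1.05, Mir99a at -0.57, Mir99b at -0.41 and Mir100 at -0.37. The part of this common shift in the members' values was not tested.

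In caput tissue, the KO libraries lay below the WT for miR-125b and not for the miR-10 genes. miR-125b had 1.10, 1.03 and 1.59 CPM in the KO against 2.70, 1.83 and 2.42 in the WT, without overlap, and differed by -0.90 ± 0.42 (edgeR adjusted p = 0.9996). Mir125b-1 and Mir125b-2, which share their reads, were the only non-overlapping members, where 3.9% of all RNAs lay lower and 3.24% higher without overlap. Mir10a had 38.1, 35.4 and 47.9 CPM in KO caput and Mir10b 30.5, 30.6 and 42.7, overlapping the WT, with differences of 0.32 and 0.17. The miR-10 seed thus held 92.4 ± 0.758% of family counts in KO caput against 87.5 ± 2.96% in WT (SD, n = 3 each), and 90.95 ± 0.212% (n = 2) against 84.7 ± 4.30% (n = 3) in corpus.

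The ratio of Mir10b to Mir125b-1 within a library does not depend on scaling between libraries. On the log2 scale it was 4.78, 4.89 and 4.75 in KO caput tissue and 3.95, 3.17 and 3.82 in WT caput tissue. All 3 KO values lay above the WT, by 1.16, with a two-sided exact permutation p = 0.1, the smallest that 3 against 3 allows. In corpus tissue the ratio was also higher in the KO, by 1.06 (exact permutation p = 0.2, the smallest for 3 against 2), and in cauda tissue by 0.29 (exact permutation p = 0.6). In caput, corpus and cauda fluid it differed by 0.29, 0.07 and -0.55 (exact permutation p = 0.2, 0.8 and 0.2) and in sperm by -0.16 (exact permutation p = 0.514). After adjustment over the 7 comparisons the smallest p was 0.35.

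In cauda tissue, Mir99a was the single member without overlap, at 3.89, 4.47 and 4.38 CPM in the KO against 8.86, 6.87 and 5.87 in the WT. It differed by -0.76 ± 0.38 (edgeR adjusted p = 0.360), where 10.1% of all RNAs lay lower and 6.91% higher without overlap. The other 7 members differed by -0.44 to 0.20, and the median over the 8 was -0.27 against -0.26 over all microRNAs tested.

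In fluid the KO values were mostly higher, as they were for microRNAs at large. The KO corpus fluid libraries had 1948718 to 3373869 total counts and the WT ones 3989262 to 10172577. Depth and genotype therefore cannot be told apart in corpus fluid. Mir125a had the largest positive difference in corpus fluid, with 18.0, 21.6 and 31.9 CPM in the KO against 7.61, 14.0 and 13.7 in the WT, 1.01 ± 0.40, which did not pass (edgeR adjusted p = 0.0812). Mir10a, with 23.3, 30.3 and 29.0 CPM in KO corpus fluid, Mir99b, with 3.61, 2.70 and 4.14, and both Mir125b genes also lay above the WT without overlap, so that 5 members did so where 20.4% of all RNAs lay higher and 15.7% lower. The median over the 8 was 0.60, against 1.07 over the 232 microRNAs tested, of which 55 were called higher and 0 lower by edgeR, and 0.10 over all RNAs. let-7a-2, which lies between Mir100 and Mir125b-1, was called higher at 1.57 (edgeR adjusted p = 0.0159). Scaled on microRNA genes alone, the 7 members with positive values turned negative, from -0.88 to -0.08, and the median over all RNAs was -0.94, with 85 RNAs called higher and 520 lower in place of 273 and 126. The summed level of the 5 epithelial markers was 87.5 to 134 CPM in KO against 27.1 to 62.6 CPM in WT corpus fluid, and that of the germ and ciliated cell markers (3 of 5 listed) was 12.8 to 15.4 against 3.58 to 9.06 CPM. The endothelial marker (25.7 to 73.8 against 9.41 to 22.4 CPM) and the striated muscle markers (11.3 to 44.3 against 6.87 to 8.05 CPM) were also higher without overlap. The smooth muscle sums (127 to 267 against 90.6 to 168 CPM) and blood sums (38.5 to 200 against 32.5 to 69.8 CPM) overlapped. Their part in the members' values was not tested. With miR-125b counted only 1 time, the family held 6.58 ± 0.545% of microRNA counts in KO corpus fluid and 9.36 ± 0.556% in WT (SD, n = 3 each), without overlap.

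Mir100 was the member with a negative value in corpus fluid. It had 0, 4 and 1 counts in the KO libraries and 6, 22 and 12 in the WT libraries, that is 0, 1.08 and 0.414 CPM against 0.896, 2.07 and 2.42. The groups overlapped, and the difference of -1.66 ± 0.79 did not pass (unadjusted p = 0.0485, edgeR adjusted p = 0.145). Scaled on microRNA genes alone it was called, at -2.70 (edgeR adjusted p = 0.0157). Both values rest on these few counts, and the fold change depends on the prior count. Every KO library here was also shallower than every WT library.

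In caput fluid Mir10a and Mir99a lay above the WT without overlap. Mir10a had 46.4, 54.9 and 48.8 CPM in the KO against 36.6, 24.3 and 35.0 in the WT, a difference of 0.65 ± 0.40 (edgeR adjusted p = 0.631), and Mir99a differed by 0.53 ± 0.36 (adjusted p = 0.670). In that comparison 13.3% of RNAs lay higher and 12.7% lower without overlap, and the median was 0.47 over the 8 members and 0.48 over all microRNAs tested. The epithelial markers summed to 241 to 298 CPM in KO against 103 to 182 CPM in WT caput fluid, and their part in these values was not tested. In cauda fluid no member was without overlap, where 6.03% of RNAs lay higher and 3.91% lower, and the members differed by -0.13 to 0.60.

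**Figure D5:**
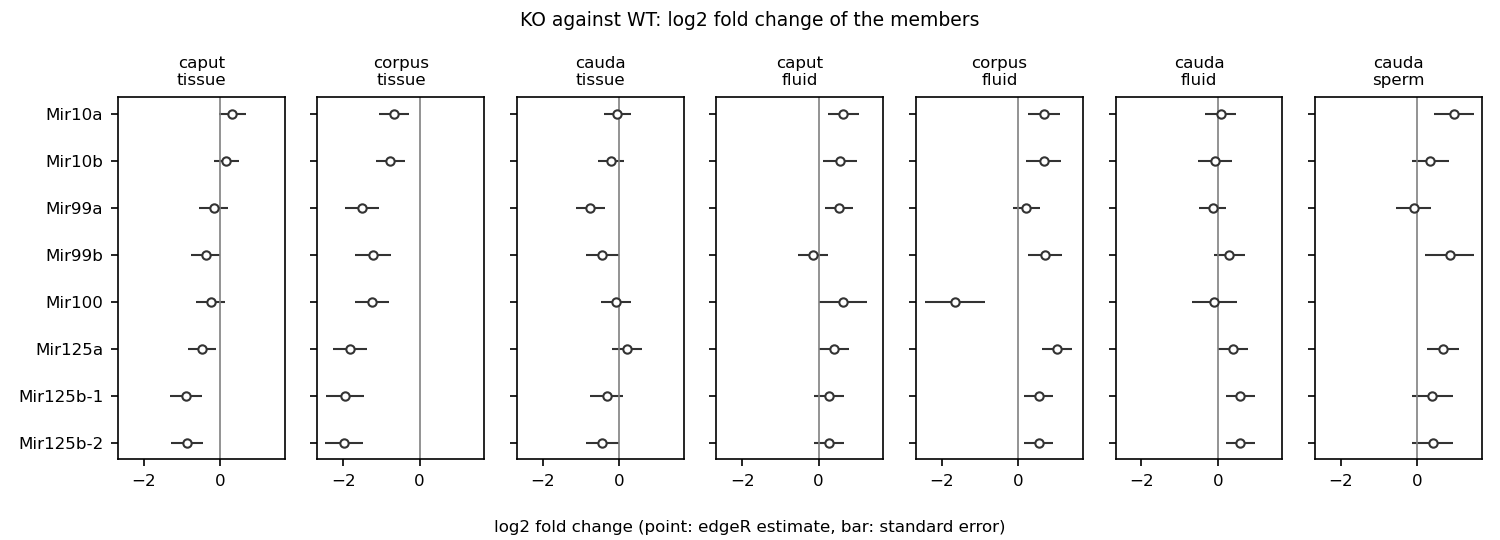
Log2 fold change of KO against WT (x axis, edgeR estimate with SE bars) of each member (y axis) in the 7 segment and material comparisons; no point is filled because none passed the test. Corpus tissue lies wholly left of 0, from -1.98 to -0.67, and corpus fluid right of 0 for 7 members, with Mir100 at -1.66.

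No member differed between KO and WT cauda sperm past the test, and the WT libraries spread widely. Mir10a had 17.1, 17.9, 16.4 and 30.2 CPM in KO sperm and 12.7, 3.51, 6.87 and 18.1 in WT sperm. miR-125b had 15.2, 26.6, 21.8 and 22.3 CPM in the KO and 17.7, 4.29, 13.2 and 30.0 in the WT. Mir10b had 11.3, 15.7, 14.3 and 15.4 CPM in the KO and 9.22, 4.29, 12.2 and 19.2 in the WT. The groups overlapped for all 3. WT replicate 2, which had 40 family counts with miR-125b counted only 1 time, was the lowest library for each. Among the 7 members tested Mir10a had the largest difference, 0.96 ± 0.52 (edgeR adjusted p = 0.386), followed by Mir99b at 0.84 ± 0.65 and Mir125a at 0.68 ± 0.42 (adjusted p = 0.468), with a median of 0.40. No member was without overlap, where 8.15% of RNAs lay higher and 1.25% lower. With the libraries of at least 10000000 counts alone, 3 KO and 1 WT, Mir10a differed by 0.26, Mir125a by 0.49 and Mir99b by 0.36. These are values without a usable test, since the WT has a single library.

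Mir100 was near the limit of detection in sperm, with at most 10 counts. Mir99b ranged from 0 to 117 counts there and passed the filter on low counts. Mir99b had 1.45, 1.89, 1.76 and 5.15 CPM in the KO and 1.19, 0.780, 0 and 2.89 in the WT, and the count of 0 in WT replicate 3 allows up to 1.59 CPM. Mir100 had 8, 8, 10 and 0 counts in the KO and 7, 0, 0 and 0 in the WT. Its zeros allow up to 1.03 CPM in KO replicate 4 and 1.17, 1.59 and 1.08 CPM in WT replicates 2, 3 and 4, above the 0.110 to 0.284 CPM of the libraries with counts, so no difference was detectable at this depth. These limits cover counting error only.

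The most alike microRNAs were sought by Pearson correlation of log2 CPM with the most abundant member of each material, leaving out the family itself. In tissue, Mir10a varied most like Mir21a (r = 0.830), Mir200a (0.813) and Mir200b (0.797) over 17 libraries, where the median over 164 microRNAs was 0.335. Within the family, Mir10b was at 0.921 and Mir99a at 0.176 with Mir10a. In fluid, Mir125b-2 varied most like Mir126a (0.807), Mir26a-1 (0.798) and Mir26a-2 (0.798) over 18 libraries, with a median of 0.356. In sperm, Mir26a-2 (0.991), Mir26a-1 (0.990) and let-7a-2 (0.988) came first over 8 libraries, where the median over all microRNAs was already 0.720. These libraries share segments, genotypes and depth, so the correlations are given as descriptions.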

How the data were processed

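Reads had been trimmed with cutadapt, per the labels, which also name UMI-tools and mm10 without saying whether the counts are of molecules or of reads, and the authors then counted them with tRAX, where a read is counted on every feature it maps to equally well. The deposited tables hold whole-number counts per RNA, with 1 feature per microRNA hairpin, so both arms count together. The family and the lists were chosen with earlier results of these data known, and the members were then taken by name. Groups came from the sample titles. Counts of all RNAs of a table were tested in edgeR 4.0.16 (R 4.3.3; filterByExpr with a minimum count of 10 and a minimum total of 15, TMM scaling, quasi-likelihood test, all groups in 1 model), which left 3488, 2023 and 2480 RNAs in tissue, fluid and sperm. Adjusted p-values are Benjamini-Hochberg over all RNAs tested, and called means an adjusted p under 0.05 with a log2 fold change beyond 1. DESeq2 1.42.0, the tool of the study, was an alternative. All 8 members were named, with the 3 most correlated microRNAs per material. Ratios used a pseudocount of 0.5 and exact permutation tests (scipy 1.17.1). Samples with the same replicate number deviated together, with every correlation over 0.1 in 3 pairs, in KO against WT cauda tissue, the 3 WT tissue comparisons, cauda against caput KO tissue and cauda against corpus KO fluid, so the replicate block is printed there wherever it changed a call. The alternative with sperm libraries of at least 10000000 counts was chosen after seeing the data. On simulated counts the edgeR steps were tested for known changes.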

Additional observations from a re-analysis of the deposited data

Results flagged for a closer look

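Each member, and the ratio of Mir10b to Mir125b-1, was looked at in the 4 KO and the 4 WT sperm libraries, 18 sets in all. In 3 of these sets 1 library stood far from the other 3 of its genotype by Dixon's 95% value, which chance gives in about 1 of 20 sets. Mir10a was highest in KO sperm replicate 4, at 30.2 CPM against 16.4 to 17.9 in the other 3 KO libraries. Mir99b was highest in the same library, at 5.15 CPM against 1.45 to 1.89. That library had 3618739 counts, 4045 of them on microRNA genes, against at least 42764979 in the other KO libraries. Mir100 was highest in WT sperm replicate 1, at 0.110 CPM, where the other 3 WT libraries had 0 counts. Those zeros allow up to 1.17, 1.59 and 1.08 CPM, more than the value that stood apart, so this set shows no difference between the libraries.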

How the results depend on the processing

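Of the alternatives that leave out no library, 557 of 636 member values kept their direction and their side of the threshold, 33 were called in addition, 14 lost a call and 32 changed sign, and 117 of 145 counts of called members stayed within 1.5 times. The cause of a change was not tested. With DESeq2, 4 members were called in KO against WT corpus tissue, and 2 each in cauda against caput KO tissue, cauda against caput WT tissue, cauda against corpus KO tissue, corpus against caput KO tissue and corpus against caput WT tissue, and 1 in corpus against caput WT fluid. With DESeq2 size factors there were 2 in cauda against caput WT tissue, 2 in corpus against caput WT tissue and 1 in corpus against caput WT fluid. With library size alone there were 3 in cauda against caput KO tissue, 2 in cauda against caput WT tissue and 0 in cauda against caput and corpus against caput WT fluid. With TMM from microRNA genes alone there was 1 in KO against WT corpus fluid, 2 and 3 in cauda against caput of KO and WT tissue and 0 in corpus against caput WT fluid, and without the filter on low counts also 0 there.

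With the replicate block, 2 members were called in each of cauda against caput KO tissue, cauda against caput WT tissue, cauda against corpus KO tissue, corpus against caput KO tissue and corpus against caput WT tissue. With the replicate block nested in genotype these were 2, 2, 0, 1 and 2, and the block changed no other count. In both comparisons with KO corpus tissue the libraries share only a number, with a lowest correlation of 0.03.

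Leaving out 1 library, called members ranged from 0 to 2 in cauda against caput KO tissue (2 without KO cauda replicate 1), 0 to 1 in WT fluid and 1 to 2 in WT tissue (2 without WT caput replicate 2), 0 to 2 in cauda against corpus KO tissue (2 without KO cauda replicate 3), and 0 to 0 and 0 to 1 in corpus against caput of WT fluid and WT tissue. The ratio ranged from -0.21 to 0.61 in cauda tissue and -0.088 to 0.30 in corpus fluid.

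Changes of sign were seen mostly with TMM from microRNA genes alone. In KO against WT this gave Mir10b -0.014, Mir99a -0.035, Mir125a -0.16, Mir125b-1 -0.30 and Mir125b-2 -0.29 in caput fluid, and Mir10a -0.36, Mir10b -0.43, Mir99a -0.88, Mir99b -0.38, Mir125a -0.082, Mir125b-1 -0.54 and Mir125b-2 -0.53 in corpus fluid. It also gave Mir10b -0.044 in caput tissue, Mir10a 0.17 and Mir10b 0.066 in corpus tissue, Mir10a 0.029 in cauda tissue and Mir10b -0.0032 in sperm, and, between cauda and corpus, Mir125a 0.13 in KO fluid and Mir125a -0.22 and Mir99b -0.21 in WT fluid. Library size alone gave Mir99b 0.068 in caput fluid, Mir100 0.12, Mir10b 0.15 and Mir99a 0.14 in cauda fluid and Mir125a -0.46 in cauda tissue, and, for Mir99a in corpus against caput, 0.11 in KO fluid and -0.47 in KO tissue. Without the filter Mir99b was 0.0062 in caput fluid and Mir125a -0.050 in cauda tissue, with the 2 groups fitted alone Mir99b was 0.038 in caput fluid, and with DESeq2 and with its size factors Mir10a was -0.017 and -0.018 in cauda fluid.

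Without single libraries, KO against WT ranged in caput tissue from -0.47 to 0.13 for Mir100, -0.022 to 0.65 for Mir10a, -0.13 to 0.42 for Mir10b and -0.36 to 0.16 for Mir99a. In cauda tissue it ranged from -0.48 to 0.16 for Mir100, -0.45 to 0.15 for Mir10a and -0.39 to 0.35 for Mir125a, and in cauda fluid from -0.40 to 0.24 for Mir100, -0.13 to 0.65 for Mir10a, -0.35 to 0.56 for Mir10b and -0.38 to 0.033 for Mir99a. In sperm it ranged from -0.022 to 0.79 for Mir10b, -0.013 to 0.89 for Mir125b-1, -0.0060 to 0.90 for Mir125b-2 and -0.46 to 0.22 for Mir99a, in corpus fluid from -0.10 to 0.34 for Mir99a and in caput fluid from -0.13 to 0.033 for Mir99b. Between segments it ranged from -0.32 to 0.058 for Mir125a in cauda against corpus KO fluid, and for Mir99a in corpus against caput from -0.35 to 0.12 in KO fluid and -0.094 to 0.21 in KO tissue.

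Under 10000000 counts were found in 4 of 8 sperm and 13 of 18 fluid libraries, and Mir100 had at most 10 counts in sperm and 35 in fluid. Assignment of reads limits Mir125b-1 against Mir125b-2, and for Mir10a against Mir10b it was not tested.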
